A study of Mus musculus with 17 samples.

Results

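Lungs of PPARα-null (KO) mice were compared with lungs of wild-type (WT) mice that, like them, had received vehicle only. The comparison took every library labelled vehicle in these genotypes, which is 5 of the 17 libraries of the series: KO vehicle 137, 145 and 149, and WT vehicle 107 and 122. A library is the RNA of 1 mouse lung and carries the mouse number of its label. Vehicle mice drank sucrose water for 14 weeks and ate the study's custom American diet, which the methods start at 6 weeks of age. Mice labelled Hi-PFOA drank water with perfluorooctanoic acid (PFOA) for the same 14 weeks and serve here as a second set of animals. WT mice were bought Sv/129 animals. KO mice, and the KI mice that carry human PPARα in place of the mouse gene, were bred from pairs that another laboratory provided. Those pairs were null for mouse PPARα and heterozygous for human PPARα. Genotype therefore cannot be told apart from the colony and origin of the mice. WT vehicle 107 was female, WT vehicle 122 was male and the 3 KO vehicle mice were female, and counts of Xist and of 4 Y-linked genes matched these labels in all 5 libraries. Library 122 is the single male, so in this comparison sex cannot be told apart from that mouse.

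PPARα is a nuclear receptor that pairs with RXR and, when bound by fatty acids or by ligands such as PFOA, turns on genes of fatty acid uptake, β-oxidation and ketone synthesis. It also damps inflammatory transcription. Its best known sites of action are liver, heart and kidney, and in lung it is present in epithelial cells and macrophages. Vehicle lungs show what the lack of the receptor goes with when no PFOA is present.

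The 5 libraries held 4116116 (KO 137), 6835651 (KO 145), 7735950 (KO 149), 7524817 (WT 107) and 7257971 (WT 122) counts, in a series range of 4116116 to 9237385. Libraries 122 and 137 stood apart. Protein-coding genes took 65.3% of the counts of 122 and 61.3% of those of 137, against 77.6% to 79.6% in the other 3 libraries. The 10 most abundant genes took 31.4% and 33.0%, against 16.6% to 18.2%. For this reason the calls that were lost without these libraries are given with the main lists. Leaving out 122 leaves WT vehicle with a single library, so a call can be lost there without a smaller difference. Without 122 no member of any of the 29 gene lists was called (edgeR), with 0 to 8 members of a list at an unadjusted p under 0.05 in 1 direction. The chi-square of the counts between replicates was at least 6.31 per degree of freedom, so each library counted as 1 replicate. Levels are CPM, the counts of a gene per unit of library size after TMM scaling, and 3 counts were worth 0.419 to 0.754 CPM in these libraries. With 2 WT libraries the spread came mostly from other groups, since all 17 libraries were fitted together. Nothing in the labels says more of the replicates than that they were separate mice.

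The defining markers of lung were present in all 5 libraries. The summed level of 10 alveolar type 2 cell markers was 12295 and 5788 CPM in WT 107 and 122, and 3842, 9726 and 11300 CPM in KO 137, 145 and 149. In 10 alveolar type 1 cell markers it was 5603 and 3149 CPM in WT, and 2014, 5335 and 4769 CPM in KO. In both lists 122 was the lower WT library and 137 the lowest library of the 5.

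Among 26062 autosomal genes whose counts summed to 20 or more, 362 were called different between KO and WT lung on vehicle, which is 1.39% of the genes tested. To be called, a gene had to differ by a fold of more than 2 at an adjusted p below 0.2 (edgeR's quasi-likelihood test, Benjamini-Hochberg). In KO lung 241 genes were higher (0.925%) and 121 were lower (0.464%). Protein-coding genes made up 237 of the calls, 146 higher and 91 lower, which is 1.44% of the 16412 protein-coding genes tested. The median log2 fold change of all genes was 0.046. At an adjusted p under 0.05, 72 genes passed (0.276%). The calls were most frequent among genes of 1 to 10 CPM, where 210 of 8306 genes were called, and among the 2014 genes over 100 CPM only 3 were higher and 13 lower. A fit without WT 122 or without WT 107 has a single WT vehicle library, and the count was lowest without WT library 122. Without it 30 genes were called (0.115%), 15 higher and 15 lower (0.0576% each), of which 29 were among the 362, and without WT 107 there were 1664 calls (6.38%). Without KO 137 the count was 352 (1.35%), of which 230 were among the 362. Without both 122 and 137 it was 44 (0.169%), of which 42 were among the 362. In 43 of the 362 genes all libraries of 1 group had no counts, so that their fitted fold changes are not bounded by the data.

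The 3 KO and 3 WT libraries of mice given PFOA are other animals, and the same contrast in them called 277 genes, 1.06% of those tested. The KO mice among them were all female, and of the WT mice 50 was female and 56 and 65 were male. The genotypes thus differed in sex in these mice too, and with sex as a covariate 184 genes were called on PFOA (edgeR). Of the 362 genes called on vehicle, 313 had the same sign in the PFOA mice, 193 (53.3%) had the same sign with an unadjusted p under 0.05, and 111 (30.7%) were called in the same direction. Among all genes 7.69% had an unadjusted p under 0.05 on PFOA in either direction and 1.06% were called. An unadjusted p under 0.05 in the opposite direction was found in 2 of the 362 genes. The median difference of the 241 higher genes was 2.19 on the log2 scale on vehicle and 0.97 on PFOA, and that of the 121 lower genes was −1.39 and −0.74. The KI minus WT medians of these genes on vehicle, against the same WT libraries, were 1.85 and −1.09. The vehicle contrast chose these genes, so the vehicle values carry that choice. The PFOA values are not fully independent of it either, since the PFOA libraries helped set the spread and the count minimum behind the vehicle calls. When only the 2 vehicle groups were fitted, 30 genes were called on vehicle. No gene passed the test of whether the KO minus WT difference depended on PFOA (edgeR's quasi-likelihood test, adjusted p under 0.2 and fold over 2). In that test 1945 genes (7.46%) had an unadjusted p under 0.05, DESeq2 called 3 genes, and edgeR called 146 without WT vehicle 107.

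**Figure D1:**
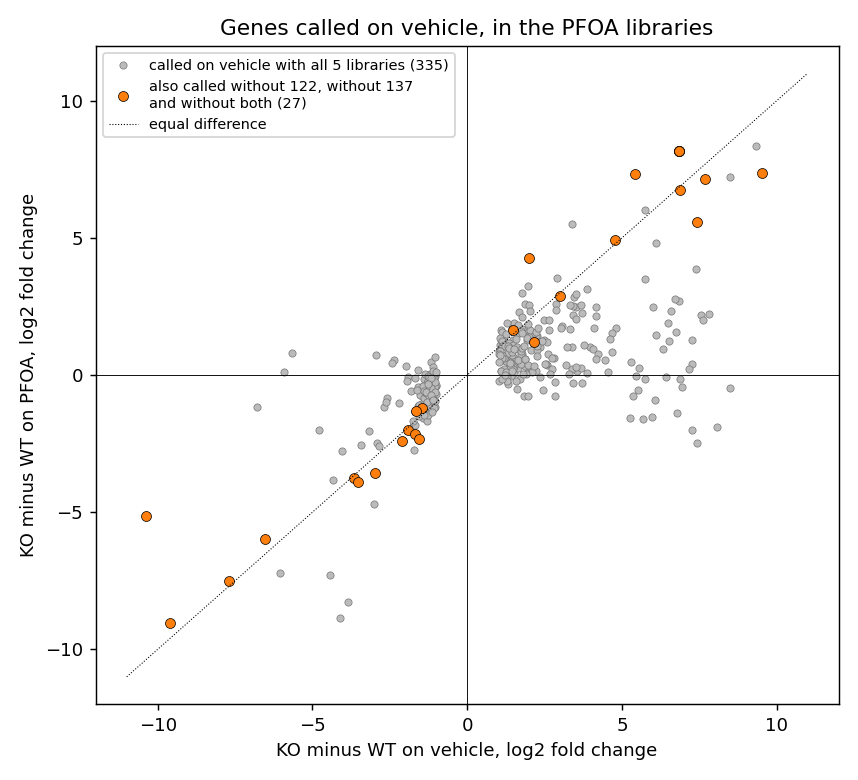
KO minus WT log2 fold change on vehicle (x axis) against the same difference in the separate mice on PFOA (y axis) for the 362 genes called on vehicle. Orange points are the 27 genes called with all libraries, without 122, without 137 and without both; most of them lie near the dotted line of equal difference, while many of the 335 grey points lie closer to 0 on the y axis than on the x axis.

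A set of 27 genes was called with all libraries, without 122, without 137 and without both, with 14 higher and 13 lower in KO. All 27 were also called in the same direction on PFOA, as the plot of vehicle against PFOA differences shows. Protein-coding genes were 11 of them: Ifi213, Ifi206, Nlrc5 and Psmc3ip were higher, and Gdpd3, Zfp973, Gprc5b, Tnn, Rpl35a, Arsj and Cntn1 were lower. The other 16 were noncoding genes and pseudogenes, 4 of which (Gm24312, n-R5s106, n-R5s118 and n-R5s130) are copies of the 5S rRNA gene with identical values in every library, so they amount to 1 measurement. Cntn1 and the 16 genes outside the protein-coding class were named after their values were seen.

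The most certain single difference was in Gdpd3, a glycerophosphodiester phosphodiesterase with lysophospholipase D activity (ENSMUSG00000030703, mm10 chromosome 7, 126766334 to 126775649, plus strand). Its level was 50.5 and 44.3 CPM in WT 107 and 122, and 6.79, 4.72 and 6.71 CPM in KO 137, 145 and 149. The vehicle groups did not overlap, which the rule that named the gene required. This held in 22.8% of all genes, 10.6% with KO lower. The log2 fold change was −2.97 (SE 0.21, adjusted p = 2.72e-07, edgeR's quasi-likelihood test), and it lay between −3.11 and −2.80 in 32 alternative fits. In the PFOA mice it was 52.1 to 63.3 CPM in WT and 3.84 to 5.57 CPM in KO, again without overlap, as in 8.51% of all genes with KO lower. KI vehicle libraries, which are compared with the same 2 WT libraries, had 4.25 to 5.36 CPM. The gene Gm9967 lies on the opposite strand within Gdpd3, and how the authors' counting used the strand is not stated in the sources used here.

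The other protein-coding genes lower in KO among the 27 follow. Zfp973, a zinc finger gene in a family of near-identical copies on chromosome 2 and so uncertain in its counts, had 15.8 and 16.9 CPM in WT, and 1.005, 1.41 and 1.68 CPM in KO (log2 fold change −3.53, SE 0.36). Gprc5b, an orphan receptor of the class C G protein-coupled family, had 80.5 and 73.8 CPM in WT, and 24.4, 23.4 and 35.8 CPM in KO (−1.46, SE 0.18). Tnn, which encodes the extracellular matrix glycoprotein tenascin-N, had 17.7 and 28.4 CPM in WT, and 6.54, 5.97 and 3.77 CPM in KO (−2.10, SE 0.26). On vehicle the rule that named these 3 genes required groups that do not overlap, and on PFOA the groups did not overlap either. The adjusted p on vehicle was 4.59e-05, 3.02e-04 and 3.48e-04 (edgeR's quasi-likelihood test). Arsj, an arylsulfatase gene, was at 17.1 and 12.4 CPM in WT and 4.27, 4.40 and 3.07 CPM in KO. Rpl35a, a protein of the large ribosomal subunit whose reads can be shared with processed pseudogenes, was at 25.3 and 22.4 CPM in WT and 5.53, 8.33 and 8.66 CPM in KO. The cell adhesion gene Cntn1 was at 50.8 and 21.7 CPM in WT and 10.1, 13.8 and 10.1 CPM in KO.

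The remaining genes of the 12 most certain lower ones depended more on WT 122. Selenbp1, a methanethiol oxidase, was abundant at 544.1 and 910.3 CPM in WT and 277.7, 323.1 and 274.8 CPM in KO. Its log2 fold change was −1.32 (SE 0.20, adjusted p = 0.00322, edgeR), and without 122 the adjusted p was 0.228. Ccdc190, a coiled-coil gene, had 8.56 and 26.6 CPM in WT and 2.01, 0.629 and 0.279 CPM in KO. Pglyrp1, a peptidoglycan recognition protein of neutrophils, had 5.46 and 15.3 CPM in WT and 2.01, 1.41 and 1.68 CPM in KO. Ces1g, a carboxylesterase of the Ces1 cluster, had 9.75 and 40.8 CPM in WT and 2.01, 3.14 and 3.07 CPM in KO. In the last 3 genes library 122 was far above WT 107, and the groups did not overlap, as the rule that named them required. Alpk1, a kinase that senses bacterial sugars, and Pnmal2 had log2 fold changes of −1.36 (SE 0.25) and −1.41 (SE 0.22). Without 122 the adjusted p (edgeR) was 0.348 for Ccdc190, 0.454 for Pglyrp1, 0.613 for Ces1g, 0.589 for Alpk1 and 0.159 for Pnmal2.

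**Figure D2:**
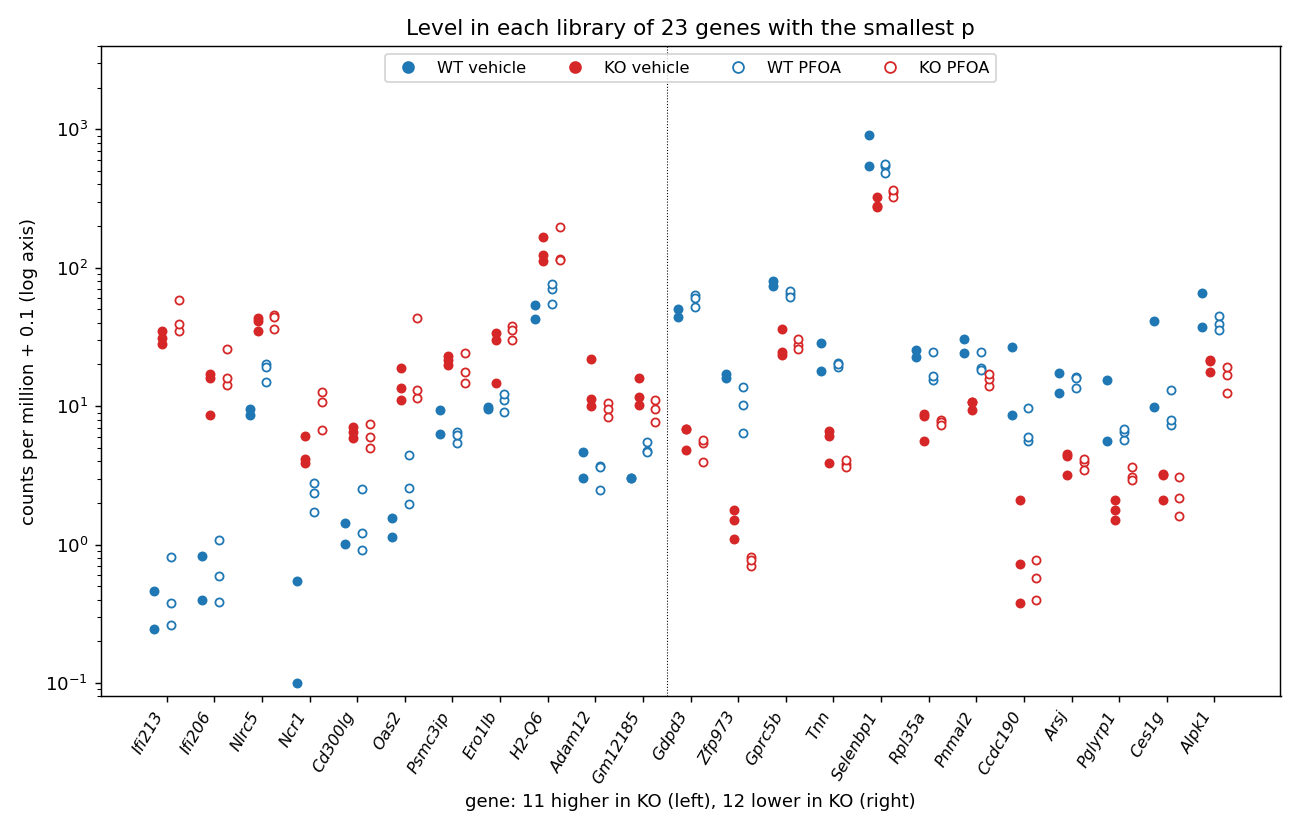
CPM plus 0.1 (log axis) of 11 of the 12 protein-coding genes with the smallest p among those higher in KO and of the 12 among those lower in KO, with groups on vehicle that do not overlap. Each point is 1 library, blue for WT and red for KO, filled for vehicle and open for PFOA. The open points were not part of the contrast that chose the genes, but they helped set its spread, which was fitted over all 17 libraries. In all 23 genes the KO and WT points on PFOA do not overlap and lie in the order found on vehicle.

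Of the 4 protein-coding genes among the 27 that were higher in KO, Ifi213 and Ifi206 had the largest fold changes. They belong to the Ifi200 family, a cluster on chromosome 1 whose products hold a pyrin domain, a HIN domain or both, and some of which sense DNA. Ifi213 (ENSMUSG00000073491, mm10 chromosome 1, 173566283 to 173599274, minus strand) had 0.148 and 0.364 CPM in WT 107 and 122, which is 1 and 2 counts, and 27.9, 34.6 and 30.9 CPM in KO 137, 145 and 149. It was almost absent from WT lung and similar in the 3 KO libraries. The ratio of summed counts was 129 (95% exact counting interval 43.9 to 627), from 552 counts in KO and 3 in WT, and the adjusted p was 3.61e-07 (edgeR's quasi-likelihood test). Ifi206, a neighbour, had 0.295 and 0.729 CPM in WT and 8.54, 16.98 and 15.9 CPM in KO, a log2 fold change of 4.78 (SE 0.62, adjusted p = 5.52e-04, edgeR). In mice on PFOA, Ifi213 was at 0.163 to 0.711 CPM in WT and 34.8 to 58.6 CPM in KO, and Ifi206 at 0.285 to 0.982 CPM and 14.1 to 25.6 CPM. KI lungs on vehicle, against the same WT libraries, were at 25.5 to 30.6 CPM for Ifi213 and 6.49 to 11.5 CPM for Ifi206, so both engineered genotypes were high.

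The stretches of the Ifi213 and Ifi206 promoters that hold an interferon response motif are shown because these genes had the largest fold changes of those 4 and have closely similar promoters. Both are RefSeq sequences of build GRCm38.p6, minus strand of chromosome 1, written 5′ to 3′, with the motif in capitals. The motif searched was GAAA, then 2 bases of any kind, then GAAA again. The Ifi213 stretch is chr1:173599296-173599405 and the Ifi206 stretch chr1:173491319-173491418.
Ifi213: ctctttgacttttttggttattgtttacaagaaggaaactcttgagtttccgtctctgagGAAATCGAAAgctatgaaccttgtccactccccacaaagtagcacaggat
Ifi206: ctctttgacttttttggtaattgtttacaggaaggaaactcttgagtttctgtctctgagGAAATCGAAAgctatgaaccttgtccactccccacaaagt
The 2 stretches matched at 97 of 100 bases, and the motif began 73 bases before the start of Ifi213 and 40 bases before that of Ifi206. Searched on both strands from 250 bases before to 50 after the start, the motif was found in 10 of 14 promoters of the family, in 11 of 18 promoters of the interferon response list and in 1085 of the 31396 autosomal promoters of the table (3.46%). A match is a description of the letters and not of a bound site. With sequences this alike, reads of one copy can be assigned to another, and the values of single family members are uncertain.

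The family held 13 protein-coding genes that were tested, between 173350879 and 174031810 on chromosome 1, and it was singled out after its members were seen among the calls. On vehicle 7 were called higher in KO (Ifi203, Ifi206, Ifi209, Ifi211, Ifi213, Ifi214 and Mndal), 1 was called lower (Ifi202b) and 5 were not called, against 0.925% called higher and 0.464% called lower of all genes. Mndal, one of the most abundant, had 23.8 and 23.5 CPM in WT and 34.7, 59.7 and 52.1 CPM in KO (log2 fold change 1.05, SE 0.29). Ifi203 had 31.8 and 12.9 CPM in WT and 44.99, 94.0 and 78.1 CPM in KO (1.69, SE 0.36), and Ifi209 had 4.13 and 4.92 CPM in WT and 8.80, 17.4 and 19.4 CPM in KO (1.78, SE 0.46). Ifi202b went the other way, with 1.92 and 0.547 CPM in WT and no counts in the 3 KO libraries. Against a floor of 3 counts over the KO group it was at least 7.61-fold lower. Ifi202b had 2.12 to 3.98 CPM in WT lung on PFOA and 0 in KO lung on PFOA and in KI lung on vehicle. Aim2, Ifi204 and Ifi205, at the ends and in the middle of the cluster, had log2 fold changes of −0.13 (SE 0.50), −0.16 (SE 0.57) and −0.18 (SE 0.43), with overlapping groups. Ifi207 and Ifi208, at 0.42 (SE 0.34) and 0.85 (SE 0.28), were not called either. On PFOA 7 of the 13 genes were called higher in KO and Ifi202b lower, against 0.675% and 0.388% of all genes. The 7 differed by 1 gene, since Ifi214 was not called on PFOA (adjusted p = 0.262, edgeR) and Ifi204 was (log2 fold change 1.83).

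**Figure D3:**
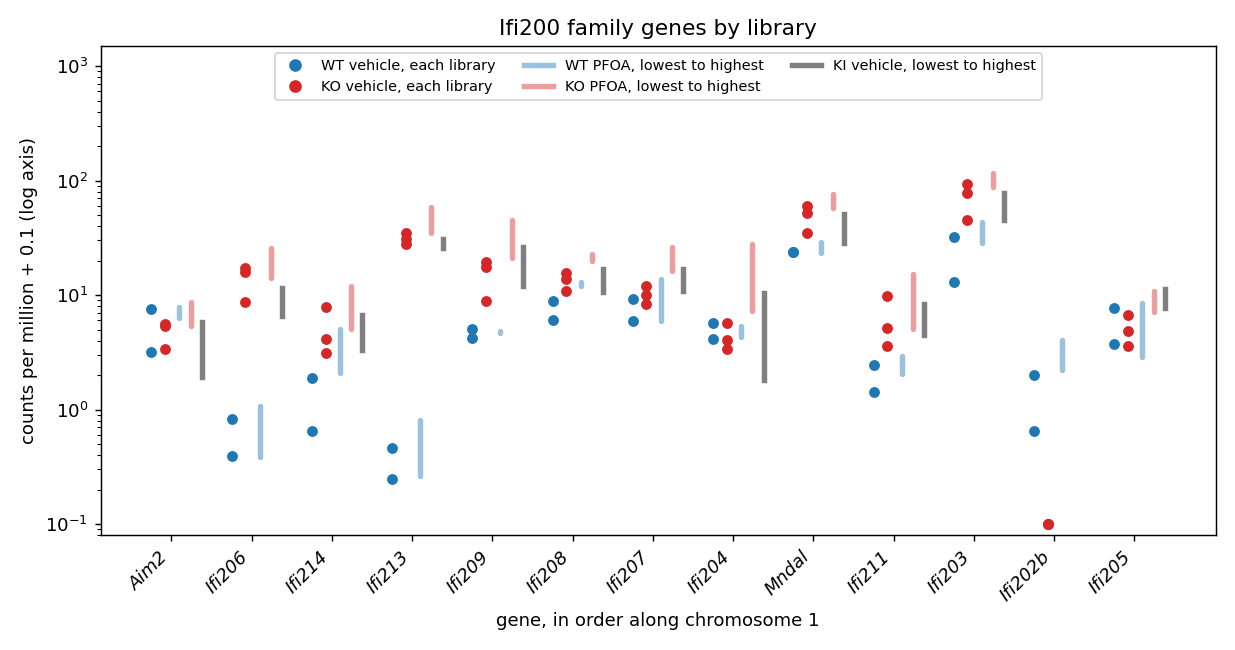
CPM plus 0.1 (log axis) of the 13 Ifi200 family genes, in order along chromosome 1. Points are the WT (blue) and KO (red) vehicle libraries, and bars run from the lowest to the highest of the 3 libraries of WT on PFOA, KO on PFOA and KI on vehicle; Ifi213 and Ifi206 are near the floor in all WT libraries and high in all KO and KI libraries, and Ifi202b is at 0 (drawn at 0.1) in all KO vehicle libraries.

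Chromosome 1 held 46 of the 362 calls, 2.49% of its 1850 genes tested, of which 35 were higher in KO. Chromosome 7, with Gdpd3, Gprc5b and Ncr1, held 41 (1.94% of 2113) and chromosome 19 held 5 (0.63% of 794). The 46 calls include the Ifi200 cluster and, as genes named after their values were seen, Slamf7, Fcgr2b and Chil1. Slamf7, a receptor of lymphocytes and myeloid cells, had 4.28 and 3.28 CPM in WT and 9.05, 14.8 and 14.9 CPM in KO. Fcgr2b, the inhibitory Fcγ receptor, had 10.3 and 8.75 CPM in WT and 14.1, 17.4 and 29.5 CPM in KO. Chil1, a chitinase-like protein of macrophages and epithelium, had 29.4 and 16.04 CPM in WT and 12.1, 112 and 144 CPM in KO, so the library 137 lay below both WT libraries. All 3 were also called higher in KO on PFOA.

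Of 23 interferon response genes, 5 were called higher in KO on vehicle and 0 lower, against 0.925% and 0.464% of all genes. The 5 were Oas2, Oas1a, Oasl2, Ifi44 and Irf7. At an unadjusted p under 0.05, 14 of the 23 were higher and 0 lower, where 8.73% of all genes were higher. The list's median log2 fold change was 0.71 on vehicle, 1.17 on PFOA and 0.65 in KI against the same WT libraries, against 0.046 over all genes on vehicle. Oas2, an oligoadenylate synthetase that activates RNase L against viral RNA, had 1.03 and 1.46 CPM in WT 107 and 122 and 18.8, 13.5 and 10.9 CPM in KO 137, 145 and 149. Its KO libraries were all far above both WT libraries, with a log2 fold change of 3.52 (SE 0.64, adjusted p = 0.0217, edgeR). Irf7, the transcription factor that amplifies type I interferon, had 11.2 and 9.11 CPM in WT and 19.4, 23.1 and 24.2 CPM in KO (1.13, SE 0.32). Oasl2 had 27.2 and 22.4 CPM in WT and 50.8, 52.5 and 60.4 CPM in KO (1.14, SE 0.31), and Ifi44 had 4.43 and 1.46 CPM in WT and 10.3, 11.6 and 11.04 CPM in KO (1.86, SE 0.51). Zbp1, Mx1 and Ifit1 had log2 fold changes of 1.54, 1.10 and 0.71 that were not called, and Isg15, Mx2 and Usp18 were at 0.30, 0.22 and −0.01. Without 122 no list member was called, 7 were higher at an unadjusted p under 0.05 (3.98% of all genes) and the median was 0.83. Without 137 Oas1a was not called and there were 4 calls (0.733% of all genes were called higher), and the median was 0.90. The 2 WT vehicle libraries share an i5 index that no KO vehicle library has. With the index as a covariate 62 of the 362 calls remained, and Oas2, Oasl2, Ifi44 and Irf7 were not called, with adjusted p of 0.282, 0.612, 0.607 and 0.689 (edgeR) and a log2 fold change of 0.54 for Irf7.

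Nlrc5, the transactivator of MHC class I genes, had 8.56 and 9.48 CPM in WT and 34.9, 41.4 and 43.3 CPM in KO (log2 fold change 2.15, SE 0.29, adjusted p = 0.00108, edgeR). It was called in each of 32 alternative fits. H2-Q6, a nonclassical MHC class I gene in a family of close copies, had 42.7 and 53.8 CPM in WT and 111, 165.9 and 124 CPM in KO (1.47, SE 0.29). It was not called without 122, where a single WT vehicle library is left, and its log2 fold change there was 1.65. Gbp4 and Gbp6, guanylate-binding proteins named after their values were seen, had 14.0 and 18.2 CPM and 10.9 and 7.84 CPM in WT. In KO Gbp4 was at 57.3, 77.4 and 82.9 CPM and Gbp6 at 22.4, 31.4 and 30.9 CPM. In both genes every KO library was above every WT library on vehicle and on PFOA, as in 12.2% and 9.9% of all genes. The guanylate-binding proteins of the interferon response list, Gbp2 and Gbp3, were not called, with log2 fold changes of 0.35 and 0.65.

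Of 16 NK and T cell markers, 5 were called higher in KO (Ncr1, Klrb1c, Ccl5, Gzma and Eomes) and 0 lower, and 7 were higher at an unadjusted p under 0.05, against 0.925%, 0.464% and 8.73% of all genes. The genes called are mainly of NK cells: Ncr1 and Klrb1c are NK receptors, Eomes is a transcription factor of NK and memory T cells, and Gzma is a granzyme of cytotoxic granules. The T cell receptor genes of the list were not called, with log2 fold changes of 0.62 for Cd3e, 0.80 for Cd3g, −0.59 for Cd3d and 0.02 for Trac. Ncr1 had 0.443 and 0 CPM in WT, which is 3 and 0 counts, and 3.77, 5.97 and 4.05 CPM in KO. The ratio of summed counts, 82 in KO and 3 in WT, was 19.2 (95% exact counting interval 6.33 to 94.8). Klrb1c had 0.443 and 0.364 CPM in WT and 3.27, 1.89 and 2.80 CPM in KO, and Gzma had 2.36 and 1.28 CPM in WT and 3.27, 6.45 and 7.27 CPM in KO. The summed level of the 16 markers was 31.9 and 18.95 CPM in WT and 52.8, 48.9 and 62.9 CPM in KO, without overlap. The list's median log2 fold change was 0.83 in KO and 1.35 in KI against the same WT libraries. On PFOA the log2 fold change was 2.15 for Ncr1 and 1.81 for Gzma, both called, 1.63 for Klrb1c (unadjusted p = 0.00363, edgeR), 1.29 for Ccl5 (unadjusted p = 0.00674) and 1.01 for Eomes (unadjusted p = 0.125). With the i5 index as a covariate Klrb1c, Gzma and Ccl5 were not called, with adjusted p of 0.320, 0.407 and 0.455 (edgeR), and Ncr1 was called (0.148). In bulk lung RNA, more cells of a type and more RNA per cell cannot be told apart. The NK receptors Klrk1 and Klre1, named after their values were seen, were called higher on both exposures, with 2.07 and 1.46 CPM in WT and 8.80, 5.03 and 6.85 CPM in KO for Klrk1. Without 122 no marker of the list was called (edgeR) and 6 were higher at an unadjusted p under 0.05 (3.98% of all genes), and without 137 Eomes was not called.

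Other immune lists gave few calls on vehicle. In the comparison 0.925% of all genes were called higher and 8.73% were higher at an unadjusted p under 0.05. At that unadjusted level 3 of 14 inflammasome genes and 6 of 24 chemokine ligands were higher, and 0 and 1 were lower. Of 14 inflammasome genes 1 was called higher, Il1a, the cytokine interleukin-1α, with 2.66 and 1.46 CPM in WT and 5.03, 10.1 and 8.10 CPM in KO. On PFOA its log2 fold change was 0.03. Of 24 chemokine ligands tested 1 was called higher, Ccl5, with 1.18 and 0.182 CPM in WT and 1.51, 4.87 and 5.59 CPM in KO. Without 122 both calls were lost, with an adjusted p of 0.666 each (edgeR). Among 12 B and plasma cell markers none was called (edgeR), and 4 were higher at an unadjusted p under 0.05, a count that was 0 without 122. The alveolar macrophage, monocyte and neutrophil lists had 0 calls of 15, 10 and 10 genes tested, with 0, 1 and 1 genes at an unadjusted p under 0.05. Their summed levels overlapped between the groups. On PFOA 2 alveolar macrophage, 7 monocyte, 6 neutrophil and 8 B and plasma cell markers were higher at an unadjusted p under 0.05 (4.64% of all genes). Of these lists, only that of B and plasma cells had a marker lower at that level on PFOA, which was 1.

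Further genes of the 12 most certain higher ones do not belong to the lists. Psmc3ip, a partner of the meiotic recombinases, had 6.20 and 9.29 CPM in WT and 23.1, 21.4 and 19.7 CPM in KO (log2 fold change 1.47, SE 0.28), and on PFOA 5.33 to 6.36 CPM in WT and 14.6 to 24.1 CPM in KO. It overlaps Mlx on the opposite strand. Cd300lg, a mucin-like receptor of capillary endothelium, had 1.33 and 0.911 CPM in WT and 5.78, 6.92 and 6.43 CPM in KO (2.48, SE 0.44). The oxidoreductase of the endoplasmic reticulum Ero1lb, the metalloprotease Adam12 and Gm12185 had log2 fold changes of 1.46, 1.91 and 2.06. In these 5 genes every KO library was above both WT libraries, which the rule that named them required. This held in 12.2% of all genes. When the model also held the i5 index, Psmc3ip lost its call, at a log2 fold change of 1.07 (adjusted p = 0.350, edgeR). Ero1lb (adjusted p = 0.272) and Gm12185 (0.387) lost theirs in that fit too, while Cd300lg (0.00800) and Adam12 (0.181) stayed called. Without 122 only Psmc3ip of the 5 was called, with an adjusted p of 0.129 (edgeR), and the others had 0.255 to 0.464.

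The gene Ppara itself (ENSMUSG00000022383, chromosome 15, 85734983 to 85802819, plus strand) had 6.79 and 8.02 CPM in WT 107 and 122 and 12.8, 11.5 and 10.2 CPM in KO 137, 145 and 149. It was not lower in the libraries labelled KO, where each was above both WT libraries. The log2 fold change was 0.63 (SE 0.29, adjusted p = 0.347, edgeR), and on PFOA it was 0.89 (adjusted p = 0.192). KI vehicle libraries had 14.1 to 16.98 CPM. A total over the gene does not check a disruption of a part of it, so these counts do not test the null label. Of the other 29 genes tested within 1 Mb of Ppara on either side, 1 was called, and the median log2 fold change was −0.06. The called gene was the neighbour Pkdrej, with 1.92 and 1.46 CPM in WT and 9.05, 4.25 and 4.47 CPM in KO (1.76, SE 0.51, adjusted p = 0.166, edgeR), which was not called on PFOA or without 122. The nearest genes Atxn10, Wnt7b and Cdpf1 had log2 fold changes of −0.31 (SE 0.25), 0.52 (SE 0.50) and 0.44 (SE 0.27).

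Among 39 known PPARα target genes, 35 passed the count minimum, and 0 were called higher and 1 lower in KO, against 0.925% and 0.464% of all genes. At an unadjusted p under 0.05, 6 of the 35 were lower and 1 was higher, where 5.44% and 8.73% of all genes were, and the median log2 fold change of the list was −0.22 on vehicle and −0.15 on PFOA. In KI against the same WT libraries it was 0.35. Without 122 none was called (edgeR), 2 were lower and 0 higher at an unadjusted p under 0.05, and the median was −0.27. Without 137 Fabp1 was also called, as higher. Eci2 and Pex11a, of the peroxisome, had −0.66 (SE 0.25) and −0.60 (SE 0.23), and the lipoprotein lipase inhibitor Angptl4 had −1.13 (SE 0.51). The mitochondrial carnitine transferase Cpt1a was at −0.04 (SE 0.26), Cd36 at −0.07, Acadm at −0.11 and Plin2 at 0.18. Pdk4, the kinase that restrains pyruvate dehydrogenase, was at −1.17 (SE 0.76) on vehicle and −1.09 on PFOA. The liver targets Cyp4a10, Cyp4a14 and Fgf21 and the liver factor Creb3l3 were below the count minimum. Of 13 receptors and cofactors none was called (edgeR), and Rxra (−0.37, SE 0.15) and Ppara had an unadjusted p under 0.05, as did 14.2% of all genes.

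**Figure D4:**
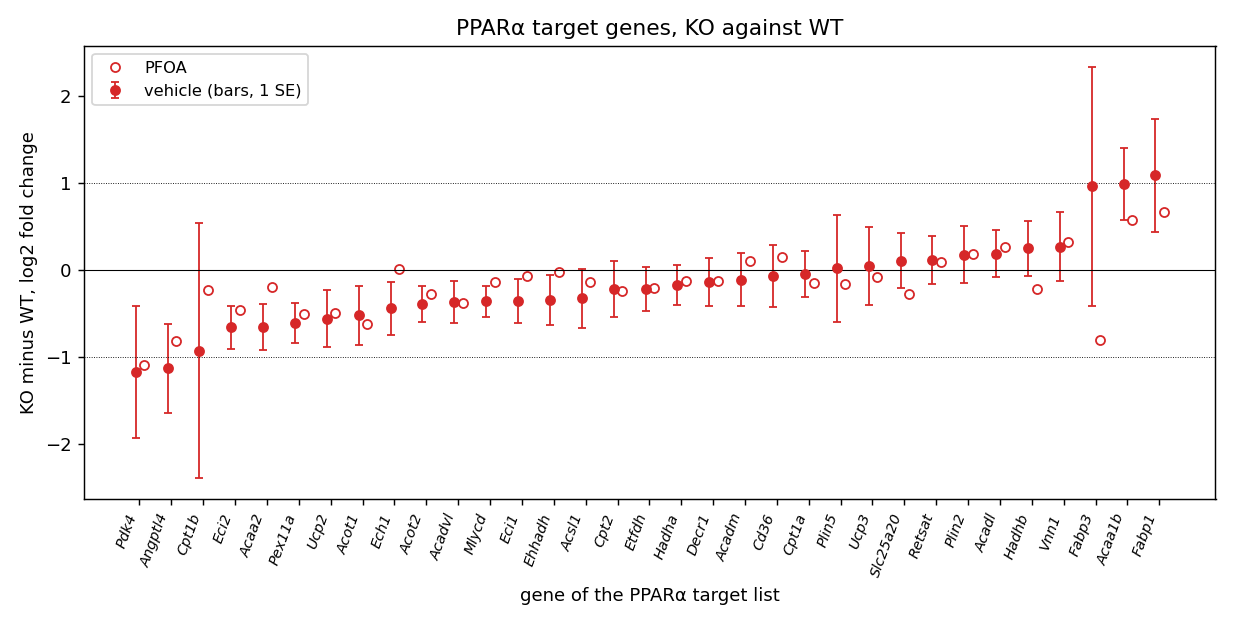
KO minus WT log2 fold change of 33 of the 35 PPARα target genes tested, ordered by the vehicle value. Filled points with bars are vehicle values with 1 SE and open points are values in the separate mice on PFOA; dotted lines mark a fold change of 2, which Pdk4 passed on both exposures, without a call on vehicle.

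Fatty acid and cholesterol synthesis showed no call on vehicle. Of 18 fatty acid synthesis and LXR genes, 1 was lower at an unadjusted p under 0.05 (5.44% of all genes), the cholesterol exporter Abca1. It had 253 and 212 CPM in WT and 92.7, 156 and 159 CPM in KO (−0.77, SE 0.28). Of 19 cholesterol synthesis genes 1 was higher at that level, Dhcr7 (8.73% of all genes were higher). The lists' medians were −0.14 and −0.05 on vehicle, and 0.20 and 0.35 on PFOA.

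Of 24 xenobiotic metabolism genes, 5 were called lower in KO and 0 higher, against 0.464% and 0.925% of all genes. At an unadjusted p under 0.05, 16 were lower, where 5.44% of all genes were. The genes called were the carboxylesterases Ces1g and Ces1d, the glutathione transferases Gsta3 and Gsta4, and Cyp2f2, a cytochrome P450 of club cells. Ces1d had 340.3 and 693 CPM in WT and 177, 261 and 261 CPM in KO (−1.15, SE 0.24), and Gsta3 had 107 and 210.5 CPM in WT and 56.8, 80.8 and 66.6 CPM in KO (−1.22, SE 0.24). Aox3, an aldehyde oxidase, had an adjusted p of 0.0468 (edgeR) with a log2 fold change of −0.98, within the fold threshold. Cyp1a1, the classic target of the aryl hydrocarbon receptor, was at −2.19 on vehicle and −2.42 on PFOA and was not called on vehicle. The list's median was −0.68 on vehicle and −0.25 on PFOA, where 9 genes were lower at an unadjusted p under 0.05 (3.05% of all genes). Its summed level was 5624 and 8814 CPM in WT and 3117, 3935 and 3866 CPM in KO. With the i5 index as a covariate Gsta3, Ces1d and Cyp2f2 were not called, with adjusted p of 0.277, 0.291 and 0.417 (edgeR), and Ces1g was called (0.122). Without 122 no gene was called, 8 were lower at an unadjusted p under 0.05 (2.66% of all genes) and the median was −0.30, without 137 Ces1d was not called and Cyp1a1 was, and without WT 107 there were 10 calls (1.99% of all genes were called lower).

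Club cell markers moved in the same libraries as the xenobiotic genes. Of 11 markers, 5 were called lower (Scgb1a1, Cyp2f2, Cbr2, Hp and Retnla) and 0 higher, against 0.464% and 0.925% of all genes. The list did not move as a whole, since 7 of the 11 markers had a negative log2 fold change and 4 a positive one. At an unadjusted p under 0.05, 6 markers were lower and 1 was higher, against 5.44% and 8.73% of all genes. Their summed level was 16623 and 35784 CPM in WT 107 and 122, and 12164, 10836 and 11876 CPM in KO 137, 145 and 149. Scgb1a1, the club cell secretory protein, had 11060 and 23760 CPM in WT and 7503, 6901 and 7531 CPM in KO, with a log2 fold change of −1.25 (SE 0.32, adjusted p = 0.115, edgeR). Library 122 was well above WT 107, and without it the log2 fold change was −0.60 (adjusted p = 0.666). Without 122 no club cell marker was called (edgeR) and 2 were lower at an unadjusted p under 0.05 (2.66% of all genes). Retnla, with 30.7 and 102 CPM in WT and 15.1, 9.59 and 12.7 CPM in KO on vehicle, was at 10.9 to 15.2 CPM in WT and 12.9 to 27.4 CPM in KO on PFOA. On PFOA no marker of the list was called and the median log2 fold change was 0.36, and the summed levels were 10575 to 13473 CPM in WT and 7222 to 11237 CPM in KO, which overlapped. With the i5 index as a covariate Scgb1a1, Cyp2f2, Cbr2 and Retnla were not called, with adjusted p of 0.297, 0.417, 0.455 and 0.223 (edgeR). The share of club cell RNA in the calls of the xenobiotic list was not tested.

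Of 10 smooth muscle markers 0 were called (edgeR) and 6 were lower at an unadjusted p under 0.05 (5.44% of all genes), with a median of −0.64. Without 122 none was lower at that level and the median was −0.24, and on PFOA the median was 0.18. Their summed level was 2808 and 4432 CPM in WT and 2470, 2465 and 2314 CPM in KO, so that 122 was again the highest library. Cardiac muscle markers had 902 and 620 CPM in WT and 2412, 364 and 421 CPM in KO, and skeletal muscle markers 10.8 and 7.47 CPM in WT and 72.4, 3.93 and 5.03 CPM in KO, so 137 stood above the rest in both. None of the endothelial, fibroblast, alveolar, ciliated, adipocyte, erythroid, mesothelial, thymocyte or muscle markers tested was called in the comparison of KO with WT (edgeR). An unadjusted p under 0.05 was found in 2 ciliated, 6 smooth muscle and 1 erythroid marker, and in 14.2% of all genes.

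**Figure D5:**
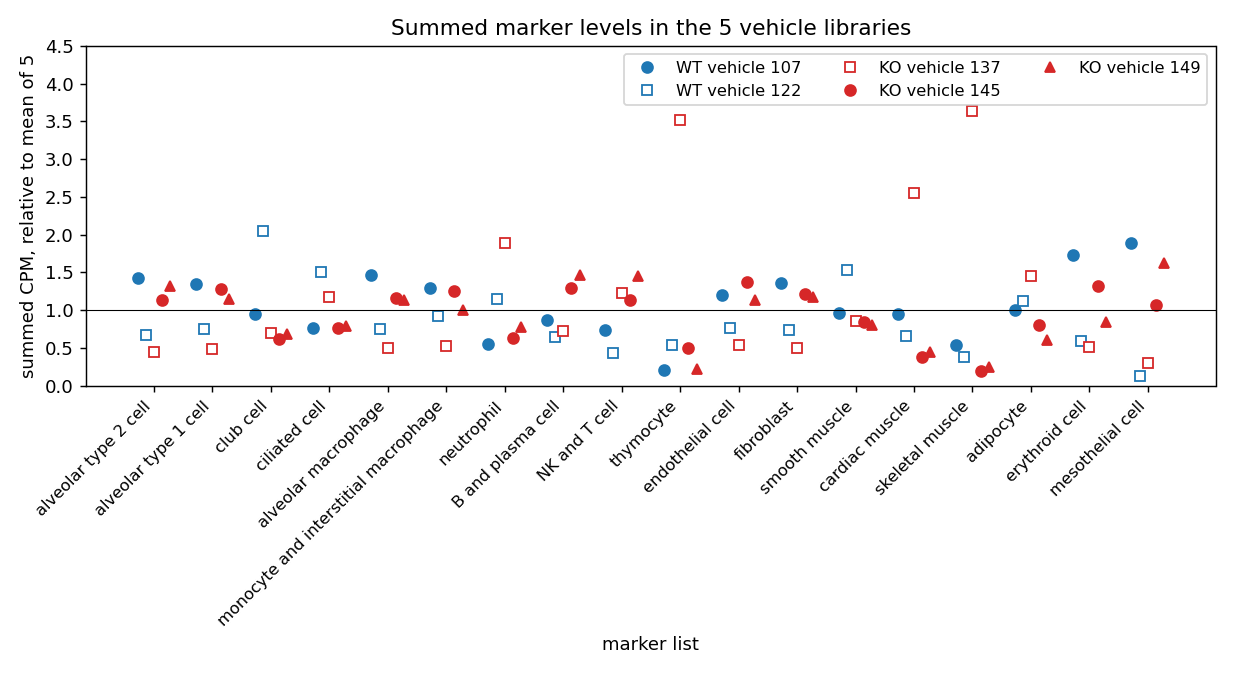
Summed CPM of each marker list in the 5 vehicle libraries, divided by their mean over these libraries (y axis), for 18 cell types (x axis). Open squares are WT 122 and KO 137; they lie below the other libraries for alveolar, endothelial and fibroblast markers, 122 lies highest for club cells and smooth muscle and 137 for cardiac and skeletal muscle.

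Among 18 circadian clock genes, 1 was called lower in KO, Per1, a repressor of the clock that also responds to glucocorticoids. It had 218 and 284 CPM in WT and 144, 78.6 and 86.6 CPM in KO (−1.29, SE 0.27, adjusted p = 0.0491, edgeR), where 0.464% of all genes were called lower. The call was lost without 122 (adjusted p = 0.598, edgeR) and with the i5 sequencing index as a covariate (−0.88, adjusted p = 0.350). Cry2, Tef and Per2 had log2 fold changes of −0.66 (SE 0.16), −0.64 (SE 0.21) and −0.89 (SE 0.31), and the activator Arntl had 0.95. On PFOA 11 of the 18 were lower and 2 higher at an unadjusted p under 0.05 (3.05% and 4.64% of all genes), with a median of −0.67, against −0.36 on vehicle. The hour at which the lungs were taken is not given in the sources used here, and its part in these values was not tested. Of 19 immediate early genes 0 were called (edgeR) and 6 were lower at an unadjusted p under 0.05 (5.44% of all genes), or 3 without 122, and Fos had 19.6 and 41.0 CPM in WT and 17.6, 14.0 and 8.10 CPM in KO. Of 19 cell cycle genes 0 were called and 2 were higher at that level, near the 8.73% of all genes.

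The noncoding genes and pseudogenes among the 27 had the widest gaps between the groups. The 5S rRNA copies had 0.148 and 0.364 CPM each in WT and 56.1, 17.9 and 18.3 CPM in KO, a ratio of summed counts of 109. Gm22513, a small nuclear RNA gene on chromosome 12, had 82.5 and 216 CPM in WT and 0.251, 0.157 and 0.140 CPM in KO. Rpl15-ps6, a processed pseudogene on chromosome 15, had 26.9 and 23.3 CPM in WT and no counts in the 3 KO libraries, at least 147-fold lower against a floor of 3 counts over the KO group. Gm18562, with 4.58 and 3.28 CPM in WT, had no counts in any KO or KI library on vehicle and was at least 23.3-fold lower. Gm42047 and C130046K22Rik had no counts in the 2 WT libraries and 9.80 to 17.8 CPM and 2.10 to 6.53 CPM in KO. Gpr137b-ps had 6.79 and 1.64 CPM in WT and 26.4, 39.9 and 38.3 CPM in KO (log2 fold change 3.004, SE 0.37). In all 27 genes, coding or not, the KI vehicle libraries lay on the side of KO and did not overlap the 2 WT vehicle libraries. The same 2 WT libraries helped choose the 27 genes, so the side on which KI lay is not independent of that choice. The share of all genes in which KI and WT did not overlap is not given here. The KI minus WT log2 fold change was 1.96 for Nlrc5, 1.39 for Psmc3ip, −2.63 for Arsj, −1.86 for Cntn1 and −1.70 for Rpl35a. Copies of noncoding genes and pseudogenes elsewhere in the genome can share their reads, so the position of their differences is uncertain.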

How the data were processed

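Lung RNA of 17 mice in 6 groups was sequenced (PPARα WT, KO or KI, on vehicle or PFOA), and the 5 vehicle libraries of WT and KO mice were compared. The authors made stranded total RNA libraries, trimmed 3′ ends, aligned reads to mm10 with STAR 2.6 and estimated counts per gene by expectation maximization in Partek Flow (versions per the submitters' processing notes, which also list DESeq2 3.5). They deposited expected counts without normalization, which were not whole in 29.9% of the table's cells. Use of the strand and the annotation release are not given in the sources used here. A further WT vehicle library of the study was not analysed here.

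Counts were rounded. Of 31245 genes, 26062 autosomal genes with a total of at least 20 were kept. edgeR 4.0.16 (R 4.3.3, limma 3.58.1) fitted all 6 groups with TMM factors and the quasi-likelihood method, with Benjamini-Hochberg adjustment over all genes tested. A call needed an adjusted p under 0.2 and a fold over 2, as in the study. Library totals of 4116116 to 7735950 put 3 counts at 0.419 to 0.754 CPM, and intervals and floors cover counting error only. The members and the 29 lists were chosen with earlier results of these data known. Genes named were Ppara, the 12 protein-coding genes with the smallest p in each direction among calls with groups that do not overlap, up to 4 genes per list with an unadjusted p under 0.05, the most abundant markers of lists whose totals do not overlap, and the neighbours of Ppara. Alternatives were DESeq2 1.42.0, other scalings, filters, covariates and thresholds, and each library left out. List counts without 122, 137 or 107 and the Ifi200 family were added after the values were seen. On simulated counts (KO against WT on vehicle, 25544 genes, 200 changed 4-fold) edgeR recovered 196 with 24 other calls, and on 25566 genes with no change it made 1 call. The simulation held no outlying libraries such as 122 and 137 and changed only more abundant genes. It therefore does not show how many of the calls in the real libraries are false. Of the 120 genes described, 118 matched GENCODE M21 (mm10) by symbol and start. Promoters came from RefSeq. Some members of the lists are not reported here. Figures were drawn with matplotlib 3.10.9 in Python 3.11.15.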

Additional observations from a re-analysis of the deposited data

Results flagged for a closer look

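Tppp3, a tubulin-binding gene of ciliated cells, differed between KO and WT in opposite directions on the 2 exposures, without overlap of the groups in either. It had 227.5 and 277.7 CPM in WT and 165.9, 175.6 and 181.6 CPM in KO on vehicle, a log2 fold change of −0.53 (SE 0.16), and on PFOA 143 to 180 CPM in WT and 189 to 214 CPM in KO, a log2 fold change of 0.30. The test of the difference between the exposures gave an unadjusted p of 0.000996 and an adjusted p of 0.667 over all genes (edgeR's quasi-likelihood test), so it did not pass.

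Outside the autosomes, 8 genes were called between KO and WT on vehicle when all chromosomes were tested. On the X chromosome Xlr3a, Xlr3b, Xlr4a and Fgf13 were higher in KO (log2 fold changes 4.93, 2.41, 4.13 and 3.85) and Prrg3 and Tsc22d3 were lower (−1.21 and −1.38). The mitochondrial genes mt-Nd4l and mt-Nd2 were higher (1.15 and 1.05). WT vehicle 122 was male and the other 4 libraries female, and mitochondrial genes took 10.4% of the counts of 122 and 13.7% of those of 137, against 5.82% to 7.88% in the other 3.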

How the results depend on the processing

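The number of genes called on vehicle (362) was 355, 337, 339, 384, 385, 366 and 342 with RLE factors, upper-quartile factors, no count filter, filterByExpr, at least 20 counts in 1 library, all chromosomes and robust estimation. It was 508 with DESeq2 and 613 with its default filters, 233 among protein-coding genes alone, 191 with sex, 145 with the i5 index (62 of them among the 362) and 891 with the protein-coding share as a covariate, 30 when only the 2 groups were fitted, 72 at an adjusted p under 0.05 and 525 at any fold. With 1 library left out it ranged from 30 (without WT 122) to 1664 (without WT 107), and it was 44 without both 122 and 137. The calls split into 241 higher and 121 lower with TMM factors and 266 and 71 with upper-quartile factors, under which the median of all genes was 0.16. It was 0.12 with no filter, and the other scalings moved it by less than 0.1. On PFOA the count (277) was 184 with sex, 85 with the index, 529 with the protein-coding share, 645 with 2 groups only, 120 at an adjusted p under 0.05, 491 without 122 and 137, and 126 to 393 with 1 library left out. For the dependence on PFOA (0 genes) DESeq2 gave 3, also with default filters, and leaving out 1 library gave 0 to 146. Signs turned only without both 122 and 137, in Atxn10 and Wnt7b, which were called in neither fit and ranged from −0.50 to 0.12 and from −0.019 to 0.87 with libraries left out. All 362 genes kept their sign without each of the 5 libraries. No paired analysis was possible because KO and WT share no replicate number. Depth limits statements under about 1 CPM, and why the count moved with WT 122 and 107 was not tested.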
